A study of Homo sapiens with 4 samples.

Results

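The 10 genes followed here are widely used as readouts of YAP and TAZ, and were measured in MIA PaCa-2, an established cell line from a human pancreatic carcinoma, with and without overexpression of ING3: CCN1, CCN2, AMOTL1, AMOTL2, AJUBA, ASAP1, AXL, CRIM1, DLC1 and FJX1. They were found by gene symbol, and 28 probe sets of the 54613 that were not array controls carried 1 of these 10 symbols and no other. A probe set is the group of short probes that reads 1 stretch of a transcript on the array. Where a gene had several, the one with the highest mean log2 signal stood for the gene, so that the 10 targets were 10 of 19775 genes with a value.

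The 2 groups differed in the lentiviral construct the cells carried. The ING3 cells were transduced with FLAG-tagged full-length ING3 in the pLenti CMV/TO Puro DEST vector, and the control cells with a GFP construct. Both were selected for stable integration, grown in high-glucose DMEM with fetal bovine and horse serum, and harvested before they were fully confluent; how many clones were kept is not given in the sources used here. Each group had 2 arrays, a and b, which the series describes as technical duplicates, so every error and p-value below reflects the spread between duplicates of 1 cell population per group and not between independent cultures. The arrays measured total RNA of the whole culture, so a change in the share of cells with a transcript and a change in its amount per cell cannot be told apart.

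YAP and TAZ are transcriptional coactivators that the Hippo kinases MST1/2 and LATS1/2 hold in the cytoplasm by phosphorylation. When released they enter the nucleus, bind the TEAD transcription factors and switch on genes of the matrix, the cytoskeleton and cell growth. Several targets feed back on the pathway: AMOTL1, AMOTL2 and AJUBA encode proteins that bind YAP or the LATS kinases. YAP is known to be active in pancreatic carcinoma, and CCN1 and CCN2 are also immediate early genes that serum and other signals induce.

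The sequence that TEAD factors recognise lies before some of these genes, and it is shown here because control by YAP/TAZ through TEAD is what the 10 genes are grouped by. RefSeq promoter sequences (GRCh38.p14) were matched by symbol for 6 of the 10 genes (CCN2, AMOTL1, AMOTL2, AJUBA, AXL and FJX1), with 9 listed start sites. The 250 bases before each start site were searched for GGAATG on either strand (CATTCC on the printed strand). CCN2 held the motif 3 times, at 169, 104 and 95 bases before its start (counted to the first base of each match). Across all genes of the table, 14.3% of 27305 held the motif before at least 1 start, and 0.106% held it 3 or more times before 1 start. The stretch before CCN2 (chr6:131951373-131951622, minus strand) is printed 5′ to 3′ with the matches in capitals, and ends at the base before the start site.
CCN2: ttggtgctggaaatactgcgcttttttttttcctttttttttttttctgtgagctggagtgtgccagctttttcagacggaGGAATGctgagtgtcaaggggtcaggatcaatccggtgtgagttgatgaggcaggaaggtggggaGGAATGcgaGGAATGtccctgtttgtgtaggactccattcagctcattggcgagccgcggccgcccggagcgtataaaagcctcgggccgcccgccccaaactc

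AMOTL2, AJUBA and AXL each held 1 match, in each case before the second of 2 listed start sites, 970, 5709 and 7532 bases downstream of the first. The stretches before the first start sites of these 3 genes, and that of FJX1, did not hold these letters. The stretch before the only listed AMOTL1 start site did not either. That site lies 61896 bases downstream of the 5′ end of the gene, and the bases before that end were not searched. A match is a description of the sequence and does not show that a factor binds there. The 30 bases around each match are given on the strand of the gene (AMOTL2 chr3:134374499-134374528, minus; AJUBA chr14:22976884-22976913, minus; AXL chr19:41226531-41226560, plus), again with the match in capitals.
AMOTL2: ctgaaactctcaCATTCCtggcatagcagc
AJUBA: gggaagttggctGGAATGaagccaaagcaa
AXL: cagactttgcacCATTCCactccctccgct

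Duplicate arrays correlated at 0.989 (control) and 0.991 (ING3) over the tested genes, which are not independent of each other. The ING3 transcript, the check of the labels, had a signal of 356 ± 24.9 in the control and 531 ± 14.5 with ING3 on its brightest probe set (SD, n = 2), a log2 difference of 0.58 that did not pass the test described below (limma adjusted p = 0.071), and its other probe sets above the filter differed by 0.018 and -0.19. Of 6 epithelial markers, KRT8, KRT18 and KRT19 were bright and KRT7 was just above the filter, while CDH1 and EPCAM were below it. The summed signal of the 6 was 40035 and 40165 in control and 45170 and 48251 in ING3 cells. KRT19 and KRT8 rose (limma adjusted p = 0.0078 and 0.033). KRT18 and KRT7 differed by 0.13 (SE 0.062) and -0.16 (SE 0.36) on the log2 scale and did not pass. CDH1 and EPCAM had lower means with ING3, with overlapping groups. KRT8 and KRT18 were read on _x_at probe sets, a kind that can cross-hybridise. Of 7 fibroblast and stellate markers, COL1A1, COL1A2, COL3A1 and DCN were above the filter and LUM, PDGFRA and PDGFRB below it. The sum was 6503 and 6275 in control and 5423 and 5806 in ING3 cells. The 4 above the filter were lower on average with ING3, and none passed. LUM and PDGFRA were higher on both ING3 arrays, and the groups overlapped for PDGFRB. The 3 leukocyte markers measured (PTPRC, CD14 and CD3D) were below the filter, as was VWF of the 3 endothelial markers (CDH5 and PECAM1 were above it), with sums of 60.1 to 83.9 and 370 to 467 over the 4 arrays. For ACTB, the 3′ over the 5′ control signal, a sign of RNA quality, was 2.58 and 1.80 in the control and 2.05 and 2.03 with ING3, so the groups overlapped. The part of these shifts in the results below was not tested.

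Of the 10 YAP/TAZ targets, 3 rose in the ING3 cells and none fell: CCN1 by 1.68-fold, ASAP1 by 1.35-fold and AXL by 1.35-fold. "Rose" and "fell" are used for genes with a Benjamini-Hochberg adjusted p under 0.05 in limma, over all 12190 genes at or above the filter, a mean log2 signal equal to that of the middle probe set (64.6 in linear signal); all 10 targets reached it. By that rule 1.5% of the tested genes were called, 1.03% upward and 0.476% downward. The mean was higher in the ING3 cells for 7 targets and lower for 3, against 48.3% higher among all tested genes, and the median log2 difference was 0.44 for the targets and -0.0074 for all tested genes. At an unadjusted p under 0.05, 7 of the 10 passed, against 17.7% of all genes. These counts describe a list of 10 that was chosen with results of these data known.

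**Figure D1:**
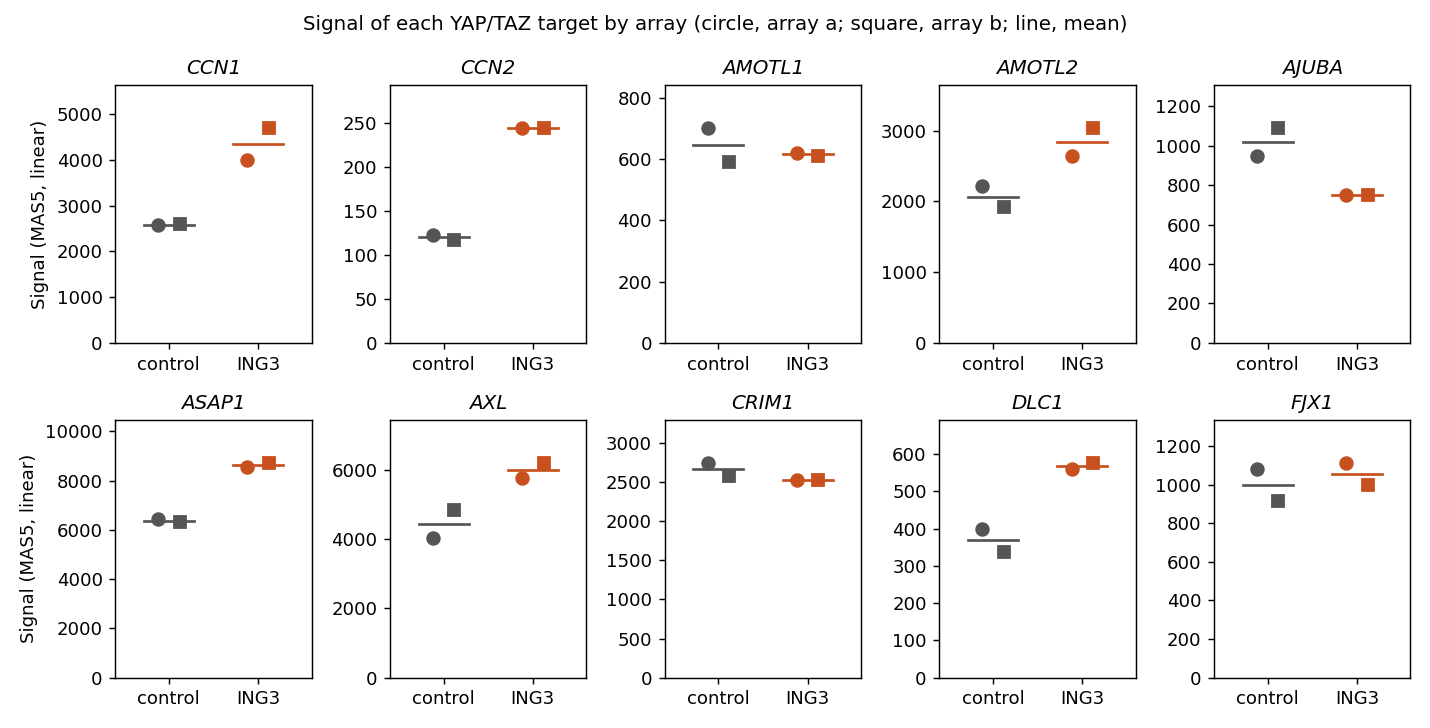
Linear MAS5 signal of the brightest probe set of each gene (vertical axis, from 0, scaled separately for each gene) on the 2 control arrays (grey) and the 2 ING3 arrays (orange); circles are array a, squares array b and lines the group means. Both ING3 arrays lie above both control arrays for CCN1, CCN2, AMOTL2, ASAP1, AXL and DLC1, below both for AJUBA and CRIM1, and the groups overlap for AMOTL1 and FJX1.

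The ING3 and control arrays did not overlap for 8 of the 10 targets, as seen in the plot of signals by array, against 49.2% of all tested genes. The ING3 arrays were the higher ones for 6 targets (24.3% of all tested genes) and the lower ones for 2 (24.9%).

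The matricellular proteins CCN1 and CCN2, secreted ligands of integrins and the genes most often read as YAP activity, had the 2 highest differences of the 10. CCN1 read 2566 and 2592 on the a and b arrays of the control, and 4001 and 4695 on those of the ING3 cells. The control duplicates nearly coincided, the ING3 duplicates were 0.23 apart on the log2 scale, and the groups were well separated. The log2 difference was 0.75 (SE 0.082, limma adjusted p = 0.0050). The second CCN1 probe set, 210764_s_at, read 1259 and 1361 in the control, against 2040 and 1815 with ING3. Its log2 difference was 0.56 (SE 0.091). Both probe sets of CCN1 thus had separate groups and the same direction.

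CCN2 had 1 probe set, which read 123 and 117 in the control and 244 on both ING3 arrays. Each pair of duplicates lay close together, and the ING3 mean was 2.02-fold the control mean on the log2(signal + 1) scale. The log2 difference of 1.02 was the highest of the 10 targets and the 34th highest of all 12190 tested genes, but CCN2 did not pass (SE 0.21, limma adjusted p = 0.054). The test takes the spread of each gene partly from genes of like brightness. After quantile or cyclic loess normalization its log2 difference was 1.14 or 1.15 and it passed (adjusted p = 0.044 and 0.045, within a range of 0.029 to 0.26 over all alternatives).

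The genes whose 4 log2 values, after subtraction of each gene's mean, lay nearest to those of CCN1 were NEURL2 (Euclidean distance 0.033 in log2 units), LINC00525 (0.053) and GDF15 (0.059). GDF15, a secreted stress cytokine, rose from 446 ± 14.3 to 762 ± 85.6 (SD, n = 2; limma adjusted p = 0.024), on an _x_at probe set, a kind that can cross-hybridise. LINC00525, a noncoding RNA, rose from 1574 ± 17.2 to 2737 ± 263 (limma adjusted p = 0.0044), and NEURL2 did not pass (83.9 ± 0.304 to 140 ± 13.2). Nearest to CCN2 were FA2H (0.076), a fatty acid hydroxylase, ERCC6 (0.10), a DNA repair ATPase, and CCNJL (0.11). FA2H and ERCC6 rose (limma adjusted p = 0.026 and 0.0043), and CCNJL did not pass. With 4 arrays in 2 groups, such likeness says little beyond the size of the group difference.

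AXL, a receptor tyrosine kinase of the TAM family that is activated by GAS6, rose on its brightest probe set. That probe set, 202686_s_at, read 4044 and 4853 in the control, against 5780 and 6214 with ING3. Control array b lay nearer to the ING3 arrays than control array a did, but the groups did not overlap. The log2 difference was 0.44 (SE 0.087, limma adjusted p = 0.047). The call was a narrow one: it was lost after quantile normalization (adjusted p = 0.067), after cyclic loess (0.071), without the filter on dim probe sets (0.12) and without ING3 array b (0.088), within a range of 0.0037 to 0.32 over all alternatives.

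The second AXL probe set, 202685_s_at, was dim and gave a far larger difference. It read 73.7 and 19.1 in the control, against 180 and 232 with ING3. Both ING3 arrays were higher, and the control duplicates were themselves 1.89 apart on the log2 scale. The log2 difference was 2.41 (SE 0.55), or 5.30-fold, and it did not pass over all probe sets (limma adjusted p = 0.12). Its control mean of 46.4 was below the filter, so that it was tested only because of its ING3 values, and its direction adds nothing to that of the brightest. The size for AXL is uncertain: the mean of both gave a log2 difference of 1.42 in place of 0.44. The other TAM receptors TYRO3 and MERTK differed by -0.29 (SE 0.16) and by -0.12 (SE 0.19) on the log2 scale, and the ligands GAS6 and PROS1 by -0.14 (SE 0.14) and by -0.35 (SE 0.11); none of these 4 passed.

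ASAP1, a GTPase-activating protein for ARF that acts at focal adhesions and podosomes, rose with the narrowest error of the 10. Its brightest probe set, 224791_at, read 6433 and 6321 in control and 8538 and 8731 in ING3 cells. The duplicates of each group differed by at most 0.032 on the log2 scale, and the log2 difference between groups was 0.44 (SE 0.056, limma adjusted p = 0.0094). Of its 5 probe sets, 4 had both ING3 arrays above both control arrays, with log2 differences of 0.35 to 0.49. The fifth, 236533_at, was the dimmest and went the other way, with 109 and 78.8 in control and 80.3 and 70.1 in ING3 cells. Its groups overlapped, and its difference of -0.30 (SE 0.33) did not pass. With the mean of all 5 probe sets in place of the brightest, ASAP1 had a log2 difference of 0.29 and was not called (adjusted p = 0.13, within a range of 0.0022 to 0.24 over all alternatives).

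DLC1, a GTPase-activating protein that switches off RHOA, gave unlike differences on its probe sets. The brightest, 224822_at, read 399 and 338 in control and 560 and 577 in ING3 cells. Its groups were apart, with a log2 difference of 0.63 (SE 0.14, limma adjusted p = 0.063). The next, 210762_s_at, read 369 and 410 in the control and 411 and 424 with ING3. Both ING3 arrays lay just above both control arrays, but the gap was within the spread of the control duplicates (log2 difference 0.10, SE 0.14). The third that was tested differed by -0.049 (SE 0.32). The last 2 were below the filter, and their groups overlapped. So 1 of the 3 tested probe sets of DLC1 had a difference larger than its SE. The mean of the 3 gave 0.23 in place of 0.63, and whether the probe sets differ from each other was not tested. The paralogs STARD13 and STARD8 differed by -0.48 (SE 0.39) and by -0.44 (SE 0.23) on the log2 scale, and neither passed.

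Among the 3 targets that feed back on the pathway, AMOTL2 was higher on average with ING3 and AJUBA lower. AMOTL2, an angiomotin-like scaffold that binds YAP and LATS kinases, read 2212 and 1921 in control and 2636 and 3039 in ING3 cells on its only probe set. The groups did not overlap, and the log2 difference of 0.46 (SE 0.094) just failed to pass (limma adjusted p = 0.051). AJUBA, a LIM protein that inhibits LATS kinases at junctions, read 948 and 1091 in control and 750 and 752 in ING3 cells. The ING3 duplicates coincided below both control arrays, and the log2 difference was -0.44 (SE 0.10, limma adjusted p = 0.078). All 3 tested AJUBA probe sets had a lower mean with ING3, the other 2 with differences of -0.27 (SE 0.13) and -0.36 (SE 0.33); the fourth, below the filter, had overlapping groups. Of the AJUBA relatives, LIMD1 differed by -0.10 (SE 0.082) and WTIP by 3.5e-05 (SE 0.12) on the log2 scale.

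AMOTL1, the closest relative of AMOTL2, had probe sets that disagreed. The brightest, 225450_at, read 702 and 592 in control and 622 and 612 in ING3 cells, so that the ING3 arrays lay within the control range (log2 difference -0.063, SE 0.12, limma adjusted p = 0.84). The second, 228840_at, read 77.1 and 50.6 in control and 99.2 and 114 in ING3 cells, with both ING3 arrays higher (0.76, SE 0.34). Its control mean of 63.9 was under the filter, so that it was tested only because of its ING3 values. The third read 65.8 and 69.8 in control and 58.5 and 121 in ING3 cells, with overlapping groups. The dimmest, 235277_at, was below the filter and read lower on both ING3 arrays (36.8 and 11.2) than on the control arrays (50.0 and 39.8). The mean of the 3 tested probe sets, which takes in 228840_at, gave a log2 difference of 0.33 in place of -0.063. AMOTL1 did not pass either way (limma adjusted p = 0.49 with the mean, the lowest of all alternatives).

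AMOTL1, CRIM1 and FJX1 had the 3 smallest differences of the 10. CRIM1, a membrane protein that binds BMPs, read 2745 and 2572 in control and 2521 and 2524 in ING3 cells on its brightest probe set (log2 difference -0.075, SE 0.069, limma adjusted p = 0.62). Its other probe sets differed by -0.024 (SE 0.10) and 0.069 (SE 0.076). The last of these, 202551_s_at, read 1605 and 1606 in control and 1682 and 1688 in ING3 cells, which separates the groups although the difference was small. FJX1, the human four-jointed homologue, read 1081 and 914 in control and 1114 and 1000 in ING3 cells on its only probe set. Its groups overlapped, and the log2 difference was 0.086 (SE 0.11, limma adjusted p = 0.73).

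**Figure D2:**
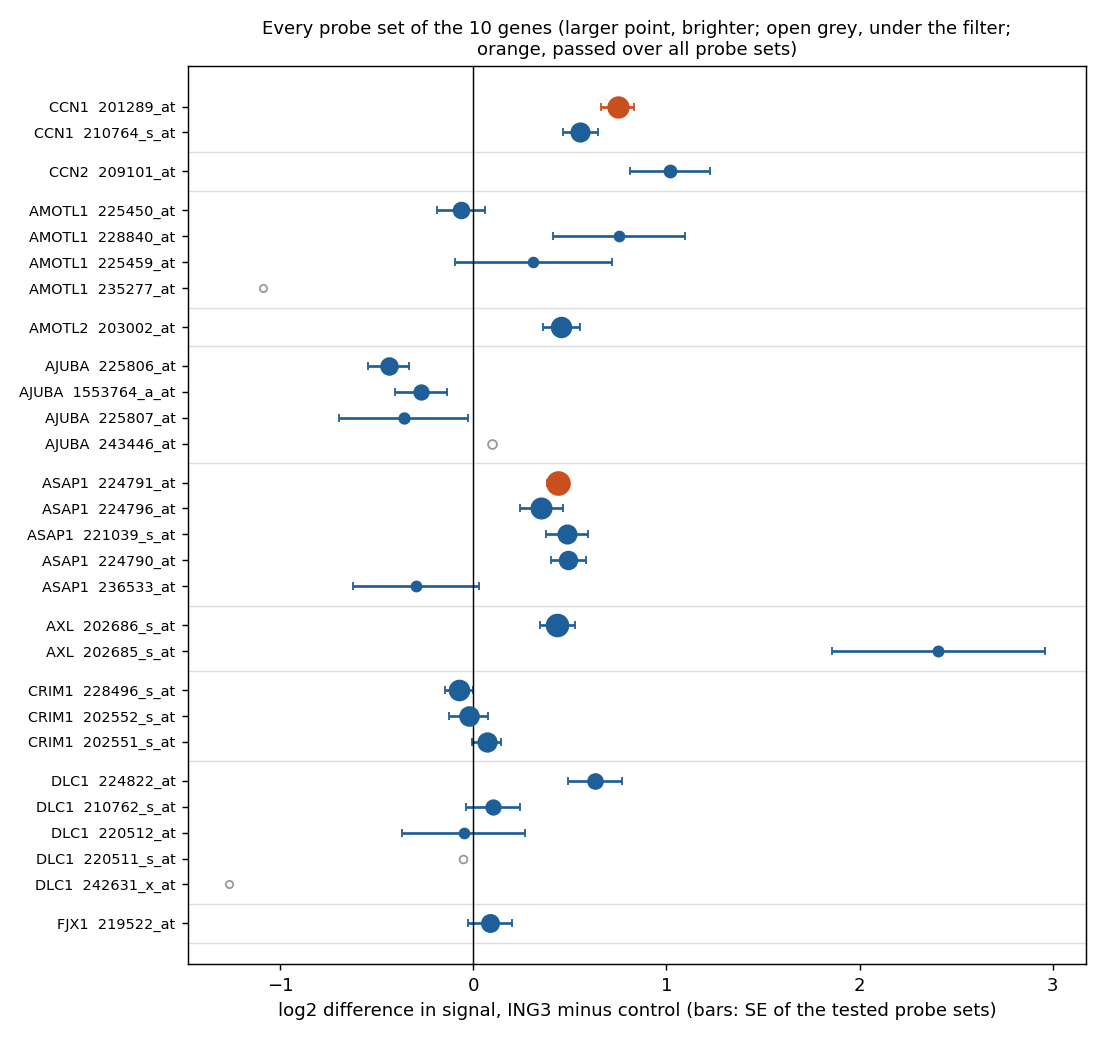
The log2 difference in signal (ING3 minus control) of all 28 probe sets of the 10 genes, with the limma SE as bars for the 24 tested; larger points are brighter probe sets, open grey points are the 4 below the filter and orange marks the 2 that passed over all probe sets. The 2 dim outer points are AXL 202685_s_at at 2.41 and DLC1 242631_x_at, an untested probe set of the cross-hybridising kind, at -1.26.

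Tested probe set by probe set, over all 27305 probe sets above the filter, 24 of the 28 were tested, 2 rose and none fell, against 0.37% of all tested probe sets called (0.267% upward). The 2 were the brightest ones of CCN1 (limma adjusted p = 0.017) and ASAP1 (0.027). That of AXL did not pass here (0.092), nor did that of CCN2 (0.090) or the second of CCN1 (0.055). Among the genes with more than 1 tested probe set, CCN1 and AJUBA had all of them going the same way. So did AXL, but its second one was tested only through its ING3 values. In ASAP1, AMOTL1, CRIM1 and DLC1 at least 1 went against the brightest. For AMOTL1 these included 228840_at, also tested only through its ING3 values.

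**Figure D3:**
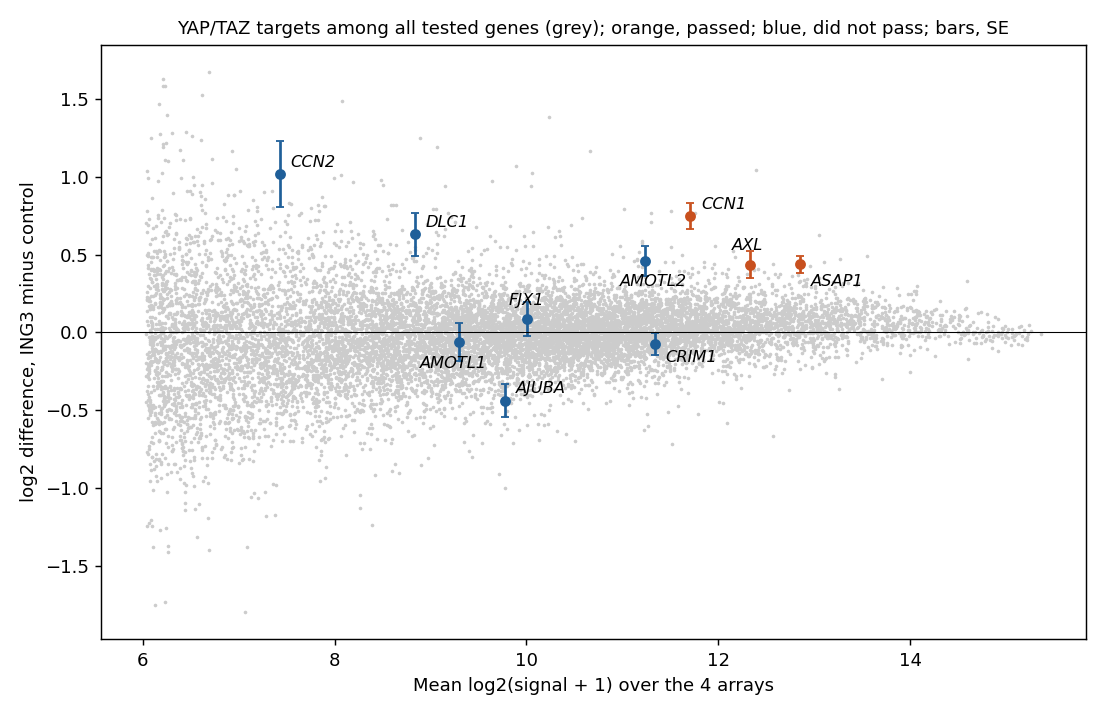
Log2 difference (ING3 minus control, vertical axis) against the mean log2(signal + 1) over the 4 arrays (horizontal axis) for the 12190 tested genes (grey), with the 10 targets marked (orange, passed; blue, did not pass; bars, SE). CCN1, AXL and ASAP1 lie at high signal, where the grey cloud is narrow, and CCN2, at 1.02, lies at low signal, where it is wide.

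By log2 difference CCN2 ranked 34, CCN1 99, DLC1 175, AMOTL2 412, ASAP1 449 and AXL 455 of 12190, counted from the highest, and AJUBA ranked 11507. FJX1, AMOTL1 and CRIM1 ranked 3697, 7479 and 7745. In the plot of all tested genes, ASAP1 and AXL passed with smaller differences than those of CCN2 and DLC1, which did not pass and had a larger SE.

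With either control array left out (a, then b), limma called 2 of the 12190 genes in each case, and none of the 10 targets was among them (limma adjusted p of CCN1 0.18 and 0.13, of ASAP1 0.19 and 0.20, of AXL 0.32 and 0.13), while the log2 difference of CCN1 stayed at 0.74 and 0.76. The direction of CCN1, CCN2, AMOTL2, AJUBA, ASAP1, AXL, CRIM1 and DLC1 was the same in each setting tried, and that of AMOTL1 and FJX1 was not. When eBayes was run without the intensity trend, limma called no gene at all, and 7 of the 10 targets and 1686 of all genes had an unadjusted p under 0.05.

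The remaining genes of the pathway were read from 4 lists by role. Of 61 such genes 58 were measured and 44 tested; limma called none, 7 had an unadjusted p under 0.05 (17.7% of all genes did), 19 were higher with ING3 on average and 25 lower, and their median log2 difference was -0.046.

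Among 11 tested genes of a list of other YAP/TAZ targets, 8 were higher with ING3 on average and 3 lower, and the median log2 difference was 0.19. The highest was F3, tissue factor, at 0.42 (SE 0.50), whose groups overlapped, and the lowest DOCK5, an activator of RAC, at -0.23 (SE 0.11). Neither passed, and none of the 11 did. ANKRD1, a nuclear ankyrin protein often read beside CCN1 and CCN2, was below the filter, at 3.01 ± 2.22 in the control and 15.6 ± 19.0 with ING3 (SD, n = 2). IGFBP3, THBS1, TGFB2, EDN1 and FOXF2 were below it too.

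The effectors themselves differed little between the groups. YAP1 read 5697 ± 148 in the control and 5753 ± 179 with ING3, and WWTR1, which encodes TAZ, 16361 ± 52.8 and 16141 ± 1117 (SD, n = 2), with log2 differences of 0.014 (SE 0.060) and -0.021 (SE 0.061). The groups overlapped for both. The TEAD factors had differences of 0.22 for TEAD1 (SE 0.077), 0.24 for TEAD2 (SE 0.16), -0.38 for TEAD3 (SE 0.21) and 0.21 for TEAD4 (SE 0.077). The ING3 arrays were above the control arrays for TEAD1 and TEAD4 and below them for TEAD3, and none passed (limma adjusted p = 0.18, 0.21 and 0.38). The arrays measure transcripts, and YAP and TAZ are mainly controlled as proteins.

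Of the Hippo kinases, adaptors and upstream regulators 17 were tested and none passed; 6 were higher with ING3 on average and 11 lower, and the median was -0.075. The highest was RASSF1, a scaffold of the MST kinases, at 0.19 (SE 0.15), and the lowest MOB1B, a coactivator of the LATS kinases, at -0.28 (SE 0.13). LATS2, itself a YAP target as well as a kinase of the core, read 2262 ± 46.1 in the control, 2573 ± 33.3 with ING3 (SD, n = 2) and had a difference of 0.19 (SE 0.068, limma adjusted p = 0.20).

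Among 12 tested paralogs and partners of the targets, 2 were higher with ING3 on average and 10 lower, and the median was -0.24. The highest was ASAP2, the closest relative of ASAP1, at 0.064 (SE 0.076), and the lowest STARD13 at -0.48. CCN6 differed by -0.20 (SE 0.32), and CCN3, CCN4 and CCN5, the other members of the CCN family, were below the filter. None of the 12 passed, and a difference between these relatives and the targets was not tested.

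**Figure D4:**
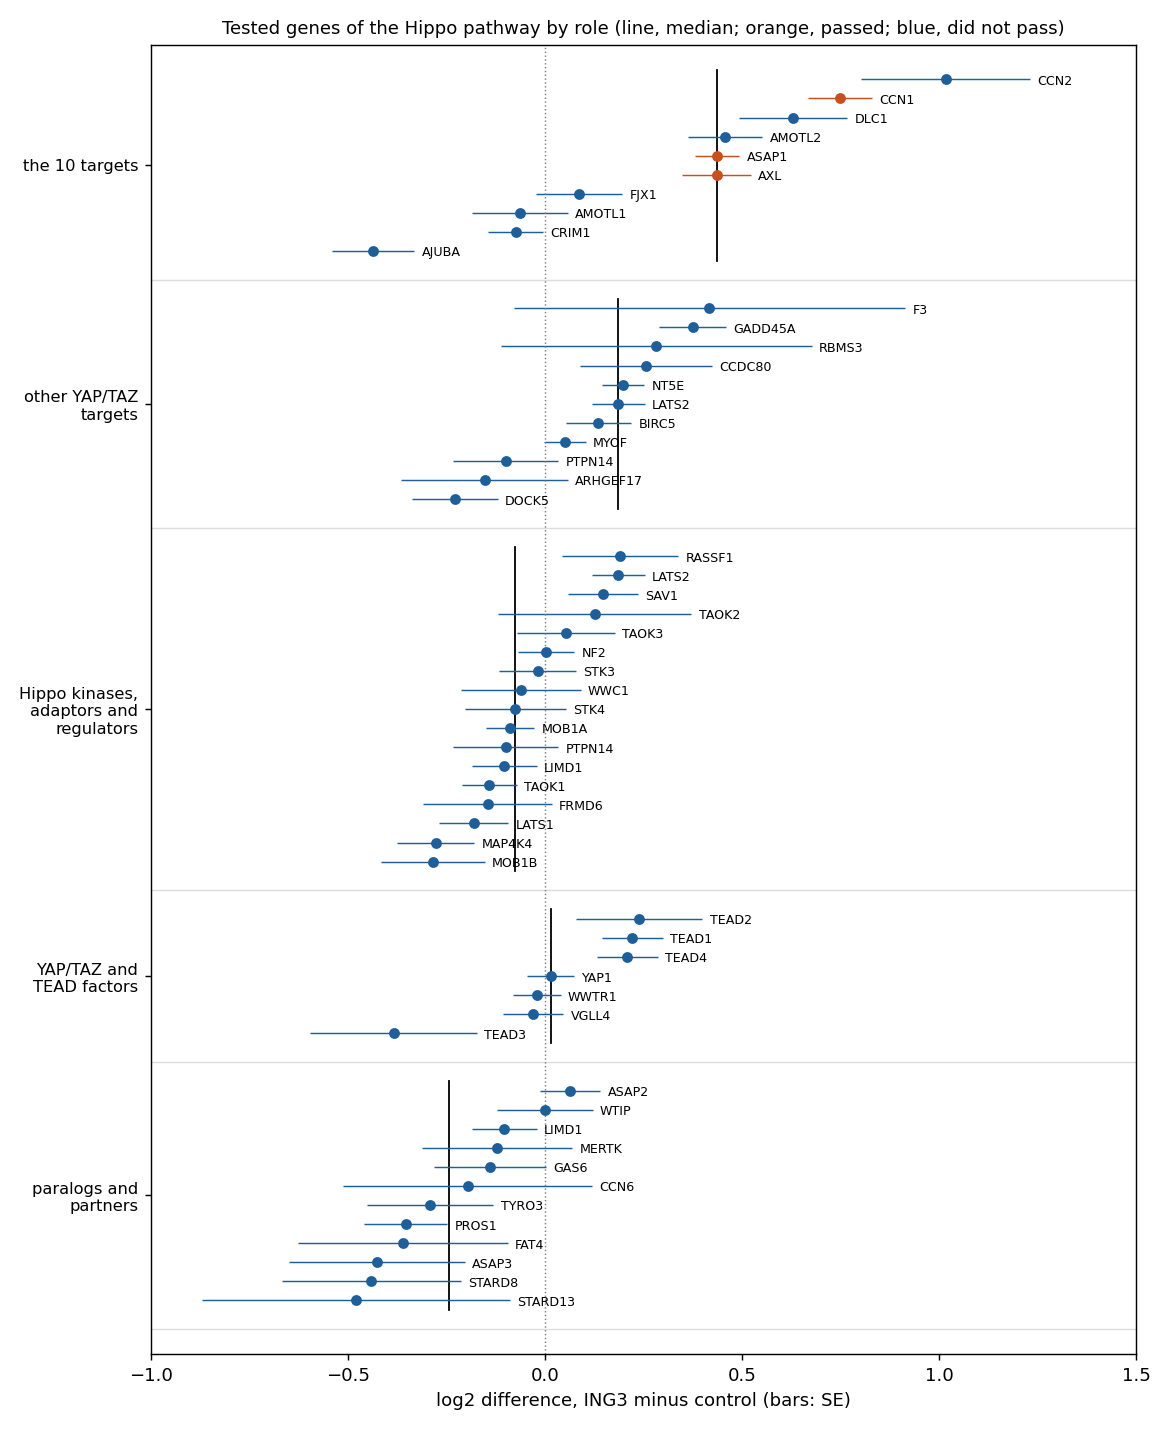
Log2 difference (ING3 minus control, horizontal axis) of each tested gene of the 10 targets and of 4 lists of the Hippo pathway, ordered by size within each list, with the limma SE as bars and the list median as a black line; genes in 2 lists appear in both. The medians are 0.44 for the 10 targets, 0.19 for other YAP/TAZ targets, -0.075 for the kinases and regulators, 0.014 for the YAP/TAZ and TEAD factors and -0.24 for the paralogs and partners, and orange marks the 3 genes that passed.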

How the data were processed

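The submitters' processing notes name MAS5 and Affymetrix Expression Console, with no version; the values the authors deposited are linear signal intensity per probe set, 1 column per array. MAS5 scales each array by 1 factor (trimmed by 2% at both ends, the mean was 500.1 on every array) and leaves dim probe sets with a wide spread. Arrays have no read depth; 2 technical duplicates per group limit the precision.

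Probe sets were assigned to genes by the platform annotation of 2016. The symbols used matched those of RefSeq wherever the gene ID was found there, and probe sets with several symbols were left out. Signals were taken as log2(signal + 1), which understates changes of dim genes, and limma 3.58.1 (R 4.3.3) compared the groups (eBayes with an intensity trend, two-sided, 2 residual and 7.35 prior degrees of freedom), once over genes and once over probe sets. The test was checked on simulated data. Their noise followed the model of the test itself, so the check cannot tell how the test behaves on technical duplicates. Alternatives were another pseudocount, filter, normalization, variance model and probe set rule, a replicate block, and leaving out each array.

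The 10 genes and the lists were chosen with earlier results of these data known. Genes named are the 10 targets, the highest, the lowest and any called gene of each other list, YAP1, WWTR1, the TEAD genes, ING3, and the 3 genes nearest to CCN1 and to CCN2; other list genes that are named were chosen after their values were seen.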

Additional observations from a re-analysis of the deposited data

How the results depend on the processing

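The count of called targets (3) was 5 with the filter at the 75th percentile, which CCN2 does not reach (AMOTL2 and DLC1 were added; 205 of all 7949 genes tested were called), and 0 with eBayes without a trend (0 of all 12190); it ranged from 0 to 4 when 1 array was left out. Of all 12190 genes, 2 were called without control array a, 2 without control array b, 305 without ING3 array a and 181 without ING3 array b, against 183 with all arrays. The count of their called probe sets (2) was 0 without a filter and 0 without a trend, and 0 to 1 when 1 array was left out. The count of other pathway genes (0) was 1 with the mean of passing probe sets (NT5E) and 0 to 2 when 1 array was left out (GADD45A and MOB1B without ING3 array a). Without a filter 54 of all 19775 genes were called, and with the mean of passing probe sets 122 of 12190. The share of all probe sets called was not counted for the alternatives. With the mean of passing probe sets the median log2 difference of the targets was 0.31, against 0.44, and that of AMOTL1 was 0.33. For AMOTL1 and AXL this mean takes in a probe set that was tested only through its ING3 values. When 1 array was left out, AMOTL1 ranged from -0.19 to 0.060 and FJX1 from -0.034 to 0.21. The cause of these changes was not tested. An array left out leaves 1 array in a group, which is assumed to vary like the other group.

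Arrays of the same letter were not shown to be pairs: the a minus b differences of the 2 groups correlated at 0.021 across probe sets. With the letter as a replicate block, which leaves 1 residual degree of freedom, 7 targets and 12 of their probe sets were called. So were 1 other pathway gene (GADD45A) and 442 of all 12190 genes, so that calls rose across the array. The share of all probe sets called with the block was not counted. Over the 12 alternatives CCN1 was called in 9, ASAP1 in 8 and AXL in 5. The AXL calls include the one with the mean of passing probe sets. That mean takes in the second AXL probe set, which was tested only through its ING3 values, so this call adds no support. CCN2 was called in 4 of the 11 alternatives in which it was tested. No table of detection calls was used, and dim probe sets, such as the second of AXL, limit what can be said of size.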
